A study of Mus musculus with 1 sample.

Results

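The genes described here are 10 genes whose inherited inactivation in people predisposes to pheochromocytoma, the tumour of the chromaffin cells of the adrenal medulla, or to its relative paraganglioma. They were taken by symbol from the gene list of the count table, where each of the 10 names (Sdha, Sdhb, Sdhc, Sdhd, Sdhaf2, Vhl, Nf1, Max, Tmem127 and Fh1) occurred once among 32285 genes, and the rule itself used no measured value, though it was set with earlier results of these data known. The study asked which cell types make up the mouse adrenal medulla shortly after birth and which of them can renew it. The cells came from untreated wild type mice aged P15 (day 15 after birth), on mixed backgrounds. Fat and much of the cortex were cut away by hand from 10 adrenals of 5 male and female animals, the remaining tissue was pooled, and 10000 viable cells were loaded for 1 library.

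Chromaffin cells make and store catecholamines. Those that carry Pnmt, the enzyme that turns noradrenaline into adrenaline, form the adrenaline type, and those without it form the noradrenaline type. Sustentacular cells are their glia-like neighbours, and the steroid-making cortex surrounds the medulla. The susceptibility genes are usually placed in 2 families. Sdha, Sdhb, Sdhc and Sdhd encode the 4 subunits of succinate dehydrogenase (complex II of the respiratory chain, which also oxidises succinate to fumarate in the citric acid cycle), Sdhaf2 attaches the flavin cofactor to the Sdha protein, and Fh1 encodes fumarate hydratase, the next enzyme of the cycle. Loss of any of them lets succinate or fumarate build up, which blocks the oxygen-sensing hydroxylases that mark hypoxia-inducible factors (HIF) for removal by the VHL ubiquitin ligase. Nf1 encodes neurofibromin, which switches RAS proteins off, Tmem127 encodes a membrane protein of endosomes and lysosomes that restrains mTORC1 signalling, and Max encodes the partner that MYC needs to bind DNA.

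All 10 are protein-coding genes of mm10, and the positions here are those of GENCODE release M21. Sdha lies at chr13:74322254-74350280 on the minus strand, Sdhb at chr4:140961203-140979193 on the plus strand, Sdhc at chr1:171127165-171150603 on the minus strand and Sdhd at chr9:50596357-50603812 on the minus strand. Sdhaf2 lies at chr19:10500534-10526142 on the minus strand and Fh1 at chr1:175600374-175625635 on the minus strand. Vhl lies at chr6:113623959-113631633 on the plus strand, Nf1 at chr11:79339693-79581612 on the plus strand, Max at chr12:76937269-76962201 on the minus strand and Tmem127 at chr2:127247908-127261107 on the plus strand. Nf1 is by far the longest, at 241920 bases with up to 58 exons in a transcript, against 7456 bases for Sdhd and 7675 for Vhl. Of these genes, Sdhaf2 shares exon sequence with a listed gene, Cpsf7 on the opposite strand. The introns of Nf1 hold Omg, Evi2, Evi2a and Evi2b on the opposite strand without shared exons.

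The promoters of the genes are described by a few known letter strings, to show what lies at their starts. RefSeq promoters of 300 bases (250 before and 50 after the gene start, GRCm38.p6) were matched for 9 of the 10 genes, all but Sdhc. They were searched on both strands for the site of the nuclear respiratory factor NRF1, for CCGGAAG, the core of sites for ETS factors, for AAGGTCA, a site of the cortex factor SF-1, and for CACGTG, the E-box that MAX dimers bind. None of these letter strings overlaps another in the sites shown. Sites from 4 of the promoters follow, 5′ to 3′ on the gene's strand with 10 bases on either side and the match in capitals (for NRF1 the letters are those of the opposite strand's match).
Sdha, NRF1 site, chr13:74350231-74350260: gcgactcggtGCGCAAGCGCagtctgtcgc
Sdhb, ETS letters, chr4:140961267-140961293: ctcggagaaaCCGGAAGcggccttcca
Sdhd, NRF1 site, chr9:50603909-50603938: tcgctggggtGCGCACGCGCggtggcagcg
Max, E-box, chr12:76962236-76962261: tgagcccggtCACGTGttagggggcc
The NRF1 site was found in 3 of the 9 promoters (Sdha, Sdhd and Max), and 4.6% of all 32851 promoters held it. Sdha held it in 3 places, which began 98, 55 and 10 bases before its start. The ETS letters were found in 5 of the 9 (Sdhb, Sdhd, Sdhaf2, Nf1 and Tmem127), against 8.86% of all promoters. The SF-1 letters were found in Sdhd and Tmem127, against 4.72% of all promoters. The E-box was found in Max alone, 3 bases before its start, against 7.15% of all promoters. A match describes letters only, and its relation to the levels was not tested.

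Of 11214 barcodes, 10139 passed the filters on cells (500 to 5000 genes, at most 20% mitochondrial UMIs), with a median of 3567 UMIs per cell. A UMI is a molecular tag that counts 1 captured RNA molecule. Clusters were named by markers, and each name ends in "-like" because no deposited annotation was used. In the medulla, 1662 cells were of the adrenaline and 392 of the noradrenaline chromaffin-like class, 139 were chromaffin-like and cycling, 414 (transitioning-like) carried both chromaffin and sustentacular markers, and 179 were sustentacular-like. Outside the medullary lineage there were 3715 cortex-like, 2150 endothelial-like, 626 immune-like and 89 fibroblast-like cells, and 773 cells, 64.7% of them called doublets, stayed unnamed. Median UMIs per cell ranged from 1149 in sustentacular-like to 5581 in cycling chromaffin-like cells. The 7 chromaffin markers, taken as a measure of free RNA, summed in cortex-like, endothelial-like and immune-like cells to 0.285% to 0.447% of their chromaffin-like level. Clusters with both chromaffin and such cells' markers stayed unnamed, which keeps that share low. Cortex markers summed to 529 CPM in endothelial-like and 449 in immune-like cells, against 24571 in cortex-like cells. Endothelial markers summed to 957 in immune-like and 260 in cortex-like cells, against 7934 in endothelial-like cells. Immune markers summed to 114 in endothelial-like and 32.3 in cortex-like cells, against 28336 in immune-like cells. Fibroblast-like cells held more of the chromaffin markers, and their endothelial markers summed above their own fibroblast markers (values below).

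The level of a gene is given as CPM, its UMIs summed over a class per 1000000 UMIs of that class, with an exact Poisson 95% interval. Ratios of levels carry exact conditional binomial 95% intervals. With 1 library there is no replicate, so no test was run and every interval covers counting error only. A gene was counted as past the fold at a ratio of at least 1.5 in either direction, and the same count over the 8789 genes at 10 CPM or more over all cells gives the background. All 10 susceptibility genes passed that minimum. Levels are not ranked between genes, since capture differs from gene to gene.

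Over the 9 named classes the cortex-like cells stood apart for Sdha and Sdhb, and the sustentacular-like cells for Nf1. Sdha, the subunit that binds succinate, had 224 CPM (95% interval 218 to 230) in cortex-like cells. In the chromaffin types it had 88.1 (81.5 to 95.2) in adrenaline, 106 (89.5 to 125) in noradrenaline, 114 (93.8 to 138) in cycling and 89.2 (77.9 to 102) in transitioning-like cells. It had 82.2 in sustentacular-like, 79.6 in immune-like, 70.6 in endothelial-like and 59.7 in fibroblast-like cells. Below the cortex, no class differed from the next in order beyond the counting interval of their ratio.

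Sdhb, the iron-sulphur subunit whose inherited loss carries a high risk of metastatic tumours, had 301 CPM (294 to 308) in cortex-like cells. It followed with 156 (135 to 179) in immune-like and 121 (80.5 to 175) in sustentacular-like cells. The other 6 classes lay between 95.03 in noradrenaline and 114 in transitioning-like cells, and among them no neighbours in order differed beyond the interval. These were 95.5 in adrenaline, 98.4 in fibroblast-like, 108 in endothelial-like and 113 in cycling chromaffin-like cells.

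Sdhc and Sdhd anchor the complex in the inner mitochondrial membrane. Sdhc had 96.0 CPM in cortex-like, 77.3 in fibroblast-like, 67.1 in endothelial-like, 65.9 in transitioning-like, 65.8 in immune-like, 65.0 in cycling, 58.8 in noradrenaline, 58.0 in adrenaline and 38.9 (9 UMIs) in sustentacular-like cells. Sdhd had 32.5 in cycling, 28.5 in cortex-like, 27.6 in immune-like, 21.9 in noradrenaline, 20.3 in endothelial-like, 18.3 in adrenaline, 17.3 in sustentacular-like, 17.0 in transitioning-like and 10.5 (3 UMIs) in fibroblast-like cells. In neither order did a class differ from the next beyond the interval. That compares neighbours only. The chromaffin-like to cortex-like ratios of both genes, given below, were 0.606 (0.549 to 0.667) and 0.659 (0.552 to 0.783).

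Fh1 was highest in cortex-like cells as well, at 28.7 (26.6 to 30.9), and stood at 21.1 in fibroblast-like, 18.9 in cycling, 17.3 in sustentacular-like, 17.0 in endothelial-like, 12.3 in adrenaline, 10.6 in noradrenaline and 10.3 in transitioning-like cells. It was lowest in immune-like cells, at 8.42 (4.20 to 15.1). Sdhaf2 had 38.3 in immune-like, 31.0 in cortex-like, 29.97 in adrenaline, 29.4 in noradrenaline, 28.7 in endothelial-like, 26.4 in transitioning-like and 26.2 in cycling cells. Its extremes, 42.2 in fibroblast-like and 8.65 in sustentacular-like cells, rested on 12 and 2 UMIs.

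Nf1 had 173 CPM (124 to 236) in sustentacular-like cells, above every other class. It then ran from 65.8 (59.4 to 72.9) in endothelial-like, 61.8 in noradrenaline, 59.7 in fibroblast-like and 56.8 in transitioning-like cells to 46.2 in adrenaline, 35.1 in cortex-like, 32.5 in cycling and 28.3 in immune-like cells. The gap between the sustentacular-like and the endothelial-like level was 2.63-fold (1.85 to 3.65). Max was the gene with its lowest level in the cortex, at 16.2 (14.6 to 17.9), against 24.9 in endothelial-like, 26.0 in sustentacular-like, 26.2 in cycling and 27.2 in transitioning-like cells, 29.3 in adrenaline and 32.4 in noradrenaline chromaffin-like cells, 35.2 in immune-like and 38.6 in fibroblast-like cells. Vhl was sparse, from 15.7 in cycling, 15.3 in cortex-like, 14.5 in immune-like, 12.4 in adrenaline, 10.9 in endothelial-like, 10.6 in noradrenaline and 9.86 in transitioning-like cells down to 4.33 and 3.51 in sustentacular-like and fibroblast-like cells, each of the last 2 from 1 UMI. Tmem127 had 35.1 in fibroblast-like, 26.8 in immune-like, 26.6 in cortex-like, 26.4 in endothelial-like, 26.0 in sustentacular-like, 23.1 in cycling, 21.3 in adrenaline, 17.0 in transitioning-like and 13.6 in noradrenaline cells. Over the 10 genes, 7 of 80 pairs of classes next to each other in order had a ratio whose interval left out 1. Classes farther apart in order are not covered by this count.

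**Figure D1:**
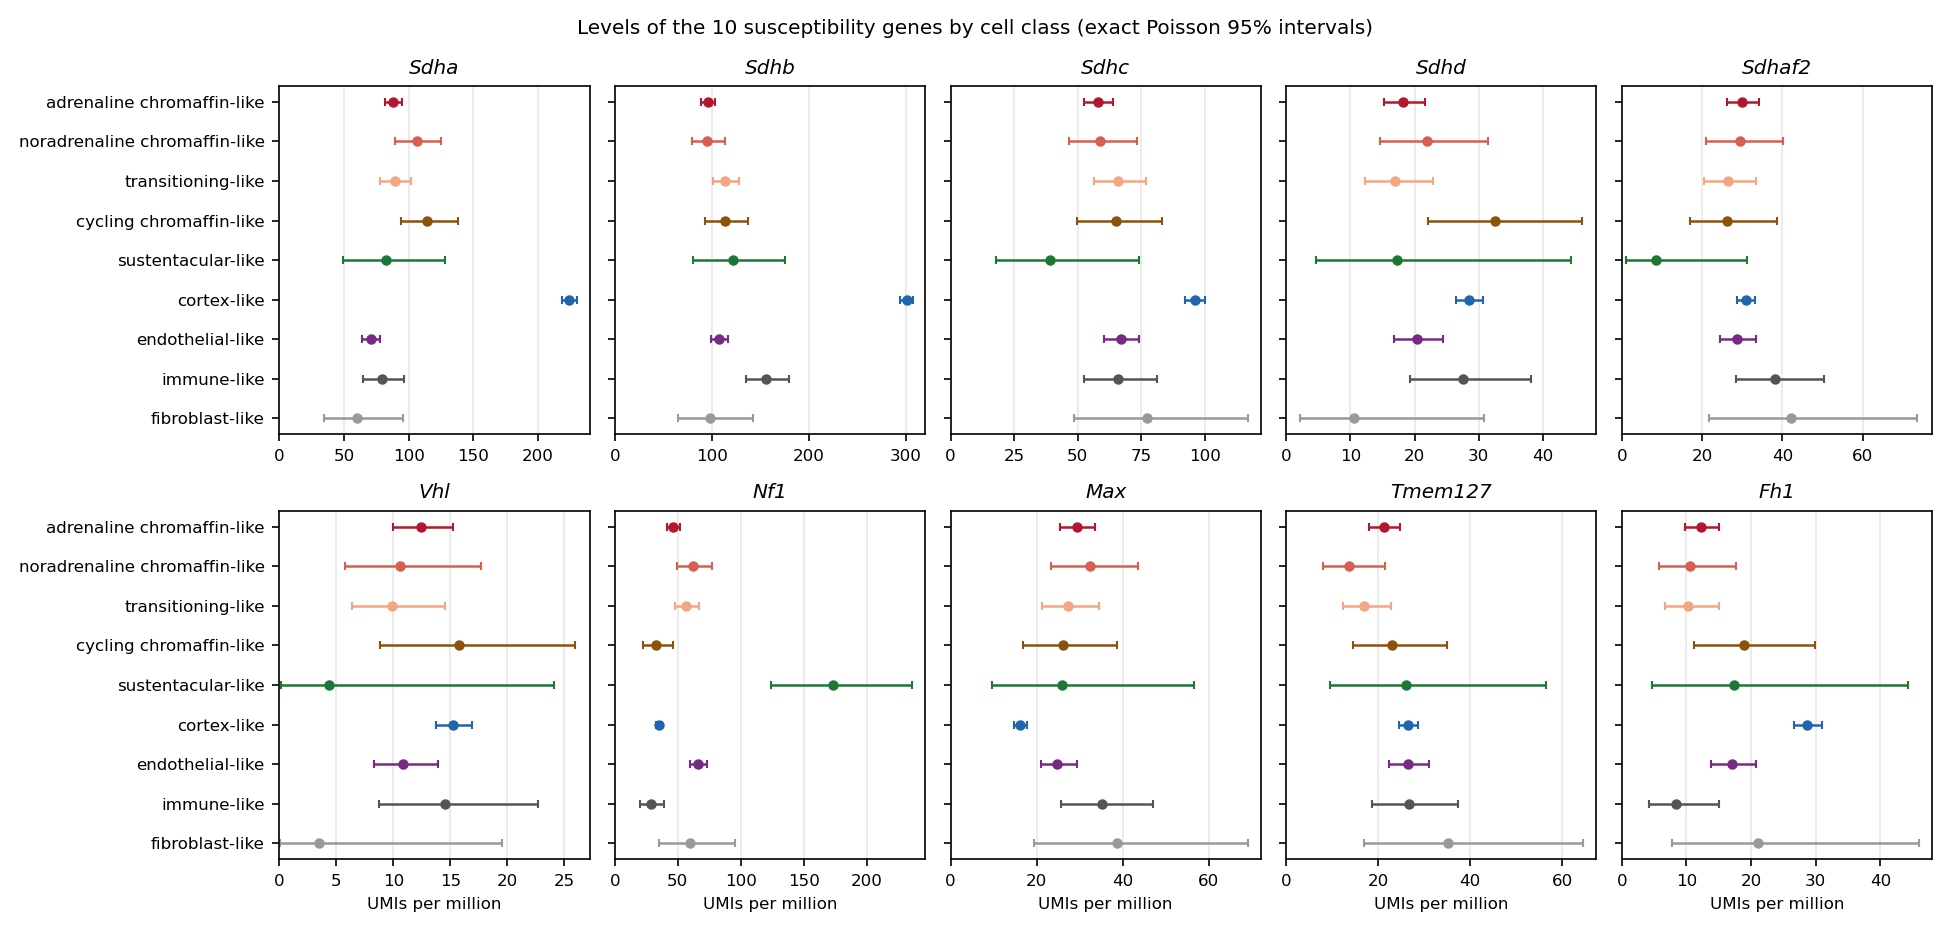
Level in CPM of each susceptibility gene (x axis, a linear scale per panel) in the 9 named classes (rows), points with exact Poisson 95% intervals. Sdha and Sdhb stand out in cortex-like cells (224 and 301), Nf1 in sustentacular-like cells (173), and Max is lowest in cortex-like cells (16.2).

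Cells with a UMI of a gene followed depth as well as level. In cortex-like cells, 75.8% held an Sdhb UMI and 68.1% an Sdha UMI, against 30.9% and 29.4% of chromaffin-like cells (adrenaline and noradrenaline types together). After every cell was thinned to 1000 UMIs, the shares were 26.5% and 19.6% in the cortex against 9.26% and 8.96% in chromaffin-like cells. For Nf1 the thinned share was 19.5% (12.9 to 27.6) in sustentacular-like cells, of which 123 were deep enough, against 3.66% in chromaffin-like and 6.05% in endothelial-like cells. The unthinned Nf1 shares, 17.3%, 16.3% and 14.3%, had been close to each other.

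The first comparison set the chromaffin cells, from which pheochromocytoma arises, against their neighbours of the cortex. In chromaffin-like against cortex-like cells, 5 of the 10 were past the fold lower and 1 was past it higher, where 32.4% of all genes tested were lower and 23.2% were higher. The median ratio of the 10 genes was 0.71 (-0.50 on the log2 scale), beside 0.92 (-0.13) for all genes tested.

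Sdhb had 95.4 CPM (827 UMIs) in chromaffin-like and 301 (7386 UMIs) in cortex-like cells, a ratio of 0.317 (0.295 to 0.341). Sdha had 90.9 and 224, a ratio of 0.405 (0.376 to 0.437), and Fh1 had 12 and 28.7, a ratio of 0.418 (0.337 to 0.514). The ratio of Sdhc was 0.606 (0.549 to 0.667), from 58.2 and 96.0. Sdhd, at 0.659 (0.552 to 0.783), only just passed the fold, and divided by the median gene its ratio was 0.719, no longer past it. Without the cycling cortex-like cluster it was 0.672, also within the fold.

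Max was higher in chromaffin-like cells, at 29.8 against 16.2, a ratio of 1.84 (1.56 to 2.15). Nf1 was higher by less than the fold, at 48.6 against 35.1 (ratio 1.38, 1.23 to 1.56), and divided by the median gene its ratio was 1.51, just past the fold. The other 3 were within the fold: Sdhaf2 had a ratio of 0.965 (0.835 to 1.11), Vhl of 0.794 (0.633 to 0.988) and Tmem127 of 0.755 (0.635 to 0.894). So the subunits and Fh1 were lower while the assembly factor Sdhaf2 was at a similar level in both. Of all genes tested, 13.7% had a lower ratio than Sdhb and 17.3% a lower ratio than Sdha.

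**Figure D2:**
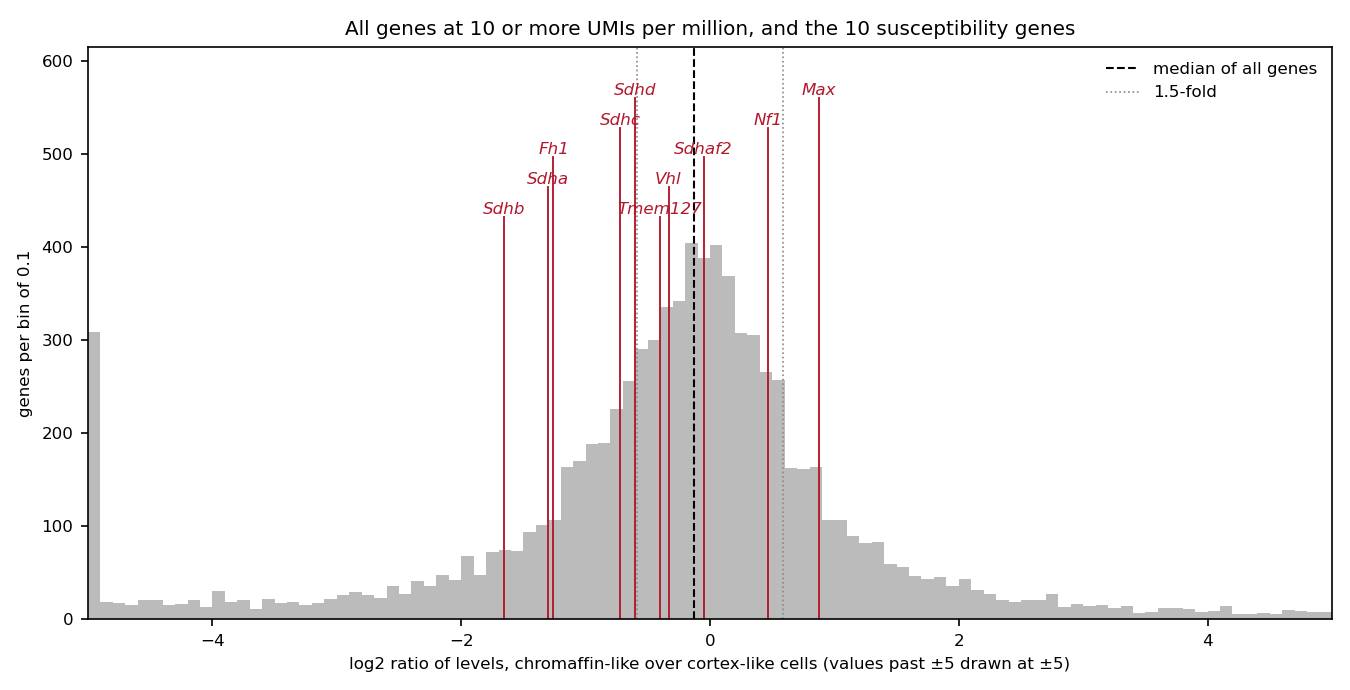
Histogram of the log2 ratio of levels, chromaffin-like over cortex-like cells (x axis), for the genes at 10 CPM or more, in bins of 0.1 (y axis, genes per bin), with the 10 susceptibility genes as red lines, the median gene dashed (-0.13) and 1.5-fold dotted. Sdhb, Sdha and Fh1 lie at -1.66, -1.30 and -1.26, Max at 0.88.

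Cortex-like cells were deeper (median 5348 UMIs) than adrenaline (3166) or noradrenaline (2660) chromaffin-like cells, and their mitochondrial share of UMIs was 7.68% against 6.08% and 6.2%. In cells of 1000 to 2500 UMIs, a window chosen after seeing the data that held 716 chromaffin-like and 321 cortex-like cells, the ratio of Sdhb was 0.331 (0.271 to 0.405) and that of Sdha 0.445 (0.342 to 0.577). Both were past the fold there too. Sdhc (0.712, 0.499 to 1.021) and Max (1.31, 0.695 to 2.62) were no longer past it in that window. Sdhd (0.242, from 14 and 28 UMIs) and Nf1 (3.24, from 47 and 7 UMIs) moved further from 1, as did Tmem127 (0.515, 0.239 to 1.12), which was past the fold there with an interval that held 1. Fh1 had a ratio of 0.552 (0.253 to 1.22).

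The 4 subunits together had 263 CPM in chromaffin-like and 649 in cortex-like cells, a ratio of 0.405 (0.388 to 0.424). Their make-up differed as well. Sdhb gave 46.3% (45.5 to 47.1) of the succinate dehydrogenase UMIs in cortex-like cells and 36.2% (34.3 to 38.3) in chromaffin-like cells, and Sdhc 14.8% (14.2 to 15.3) and 22.1% (20.4 to 23.8). The Sdha share was 34.5% in both. The cortex share was not uniform. In the cortex-like cluster led by Wnt4 and Dab2, described below, Sdhb gave 861 of 2291 of these UMIs. In the one led by Akr1c18 and Pik3c2g it gave 4031 of 7843. The Sdhb share was 47.4% in immune-like, 46.7% (of 60 UMIs) in sustentacular-like and 40.5% in endothelial-like cells, so it did not set the cortex apart from every class.

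Many genes of the same pathways were lower in chromaffin-like cells as well. Of 15 other genes of the citric acid cycle and of pyruvate dehydrogenase, which feeds it, 11 were past the fold lower and 0 higher (median ratio 0.52). Of all genes tested, 32.4% were lower and 23.2% higher. Suclg2, a subunit of the enzyme that makes succinate, had 21.3 against 155 CPM (ratio 0.138, 0.118 to 0.160), and Dld, shared by the cycle's dehydrogenase complexes, 38.0 against 127 (0.298). At the other end, Mdh2, the malate dehydrogenase of the cycle, had a ratio of 0.842 and Idh3a one of 0.795.

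Of the nuclear genes of the other respiratory complexes, 13 of 25 in complex I, 8 of 9 in complex III, 6 of 10 in complex IV and 7 of 15 in complex V were past the fold lower, and 1, Ndufv3 of complex I (861 against 489), was past it higher. Over all genes tested, 32.4% were lower and 23.2% higher. Uqcrq of complex III had the lowest ratio among the genes of these complexes, 0.25, at 568 against 2274. The median ratios were 0.63, 0.53, 0.58 and 0.71, beside 0.51 for the 4 subunits of complex II. As a sum, complex II stood in adrenaline chromaffin-like cells at 0.4 of its cortex level, complex III at 0.508, complex I at 0.667, complex IV at 0.699 and complex V at 0.745. In endothelial-like cells the same sums for complexes II, III, I, IV and V stood at 0.409, 0.391, 0.503, 0.5 and 0.571. Relative to the cortex, the adrenaline type thus had higher sums than endothelial-like cells for complexes I, III, IV and V, but not for complex II. The intervals of their complex II sums overlapped, at 260 CPM (248 to 272) in adrenaline and 266 (252 to 279) in endothelial-like cells. Noradrenaline and transitioning-like cells had 282 (254 to 312) and 286 (265 to 307), with intervals that overlapped the endothelial-like one as well. Cycling cells had 325 (290 to 363), an interval above the endothelial-like one.

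**Figure D3:**
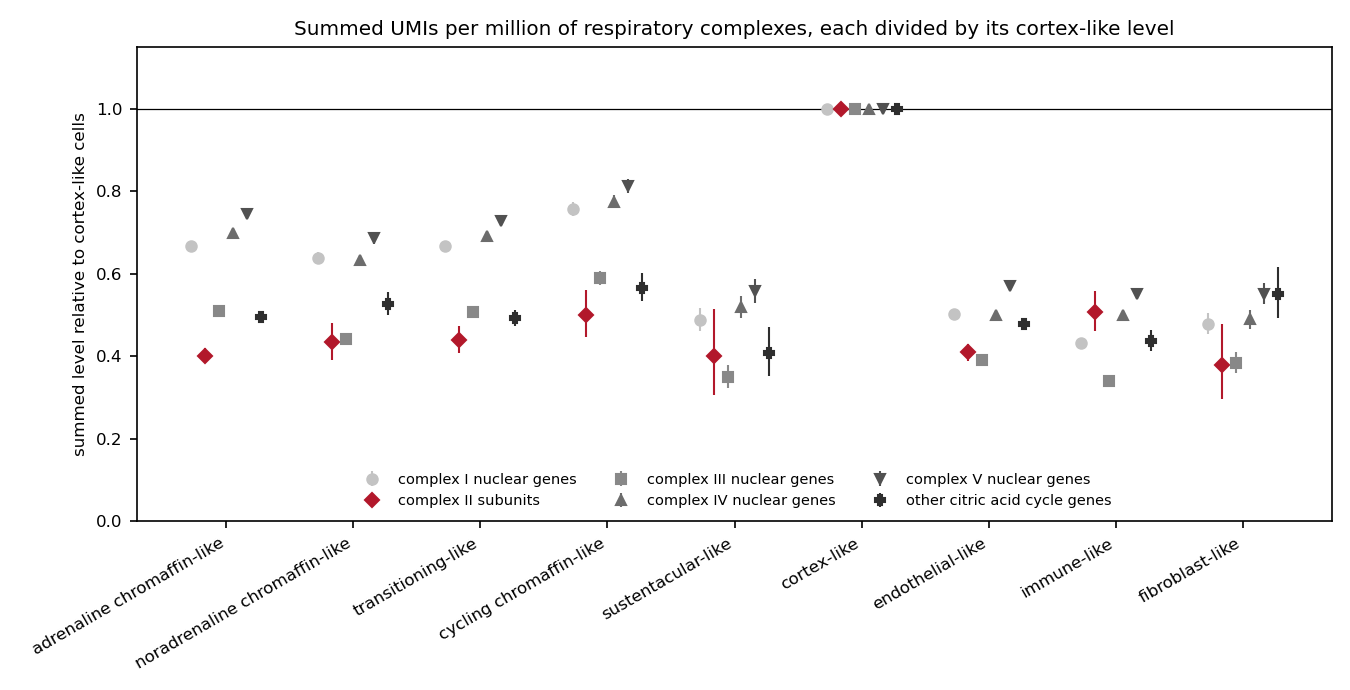
Summed level in CPM of the nuclear genes of each respiratory complex, and of 15 other genes of the citric acid cycle and pyruvate dehydrogenase. Each sum is divided by the sum in cortex-like cells (y axis, starting at 0), by class (x axis). The Poisson 95% intervals cover the class's own counts only. Complex II (red) stands at 0.379 to 0.507 of its cortex level in all other classes, and in adrenaline chromaffin-like cells it lies below the other complexes.

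The 3 other assembly factors of succinate dehydrogenase did not move together. Sdhaf4, which hands the flavinylated Sdha protein to Sdhb, was past the fold higher in chromaffin-like than in cortex-like cells, at 158 against 94.2 (ratio 1.68, 1.57 to 1.80). Sdhaf1 (0.845) and Sdhaf3 (0.753) were within the fold. Sdhaf4 also had 3.08 times the endothelial-like and 3.18 times the immune-like level in chromaffin-like cells.

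For the VHL and HIF axis, 0 of 10 tested genes of the ligase, the hydroxylases and the HIF subunits were past the fold against the cortex, and Epas1, which encodes HIF-2α, had the highest ratio at 1.48 (1.32 to 1.65). Among all genes tested, 23.2% were past the fold higher and 32.4% lower. Of 8 tested HIF target genes 4 were higher and 2 lower, with Ndufa4l2 at 1155 against 5.37 CPM and Adm, encoding adrenomedullin, at 114 against 1.26, while Vegfa had a ratio of 0.341 and Bnip3 one of 0.268.

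The list of MAX partners also held Mlx, which encodes a MAX-like protein, and Mlxip, which encodes a partner of that protein. Of its 8 tested genes 3 were higher and 2, Mlx and Mlxip, were lower. The background for this and the next lists is 23.2% higher and 32.4% lower over all genes tested. Mxd1, an antagonist of MYC at MAX, had a ratio of 3.08 and Mlx one of 0.341. Mycn and Mxd3 lay below 10 CPM over all cells and are not in that count. Mycn had 23.9 against 0.773 CPM (ratio 30.9, 19.3 to 52.3) and Mxd3 0.231 against 9.61. Of 16 RAS pathway genes 3 were higher and 1 lower, with Braf at 75.9 against 31.4 and Spred1, a partner of neurofibromin, at 21.5 against 99.4. Of 13 mTORC1 and Ragulator genes 3 were higher and 3 lower, with Lamtor3 at a ratio of 2.10 and Lamtor5 at 0.522. Among 17 tested further genes altered in these tumours, 1 was higher, Braf, and 5 were lower, with Idh1 lowest at 42.1 against 718.

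Within the cortex the levels were not uniform. The cortex-like cells formed 4 clusters, named here by leading genes: a cluster led by Wnt4 and Dab2 (755 cells), one led by Cyp11b1 (907), one led by Akr1c18 and Pik3c2g (1693), and a cycling one (360). Sdhb had 178 CPM (166 to 190) in the Wnt4 cluster and 251 in the Cyp11b1 cluster. It had 386 (375 to 398) in the Akr1c18 cluster and 298 in the cycling cluster. The Akr1c18 cluster thus had 2.17 times (2.02 to 2.34) the Wnt4 cluster's level, while the median ratio of all genes between them was 0.88. Wnt4 is known from the outer and Akr1c18 from the inner cortex.

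Sdha followed the same order over a narrower range, 177, 224 and 245, and Sdhd had 20.6, 28.6 and 31.1. Sdhc (97.0, 101 and 89.3) and Fh1 (29.1, 28.3 and 28.3) did not follow it. Nf1 had the opposite order, 46.4, 43.9 and 25.8, and its ratio between the Akr1c18 and the Wnt4 cluster was 0.555 (0.463 to 0.666). Max had 23.3, 11.5 and 15.3. Every one of the 4 cortex-like clusters had more Sdha, Sdhb, Sdhc and Fh1 than the chromaffin-like cells. The smallest of the Sdhb ratios, in the Wnt4 cluster, was 1.86 (1.69 to 2.05). For Sdhd (1.10, 0.847 to 1.42) and Max (0.783, 0.622 to 0.981) the Wnt4 cluster was within the fold of the chromaffin-like cells. In the other clusters both genes were past it, Sdhd at 1.52 to 1.69 and Max at 0.386 to 0.564.

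**Figure D4:**
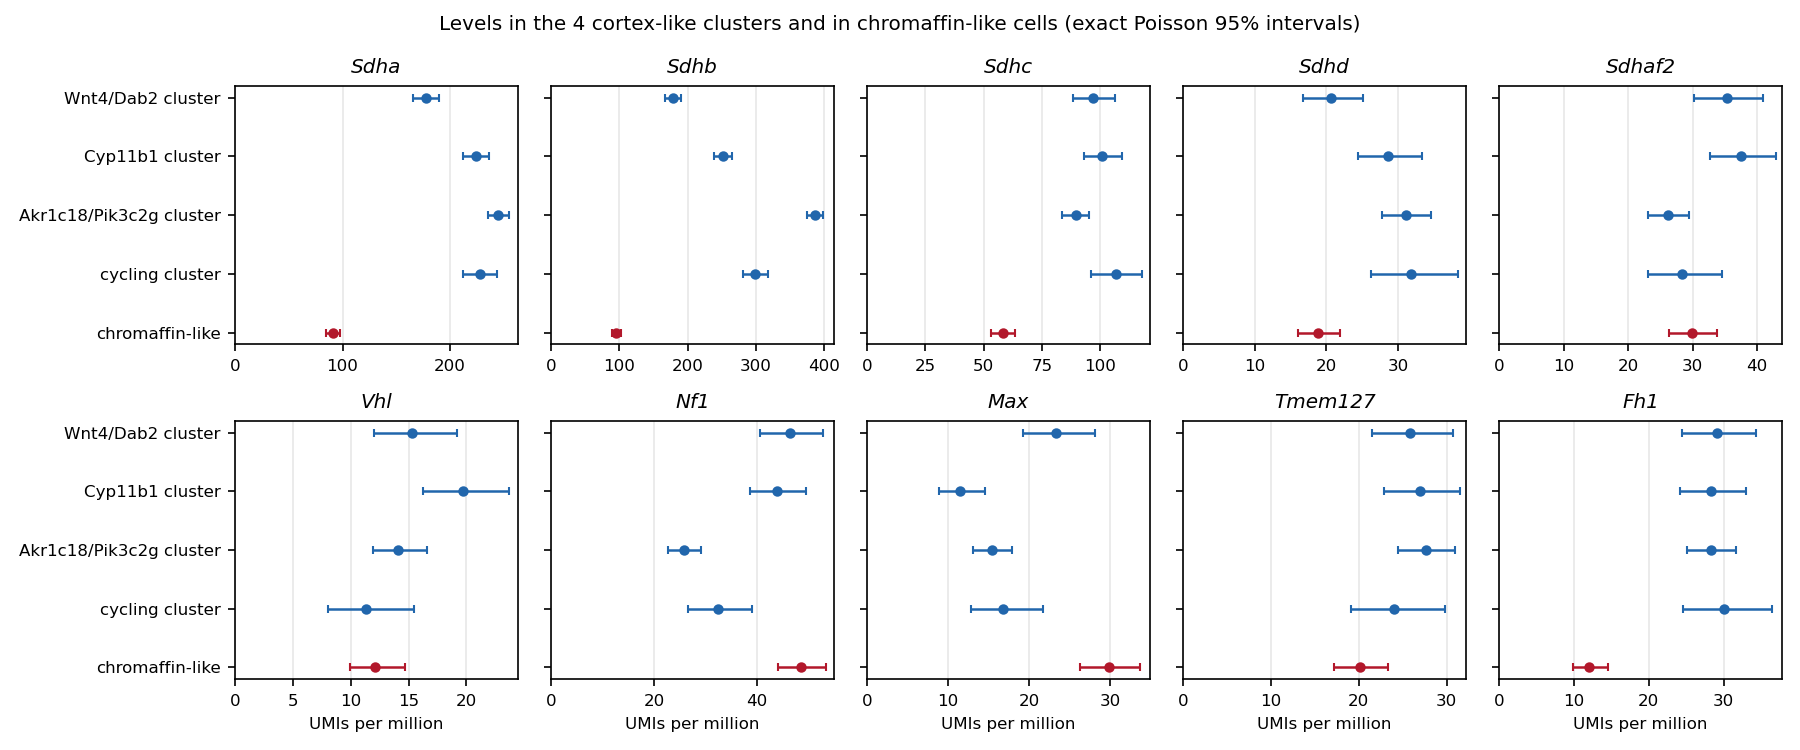
Level in CPM of each gene (x axis) in the 4 cortex-like clusters (blue) and in chromaffin-like cells (red), with exact Poisson 95% intervals. Sdhb runs from 178 to 386 within the cortex and stands at 95.4 in chromaffin-like cells, whereas Fh1 is level across the cortex clusters, between 28.3 and 30.1.

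The chromaffin-like cells were also set against endothelial-like and immune-like cells. In chromaffin-like against endothelial-like cells, 0 of the 10 genes were past the fold, where 27.1% of all genes tested were higher and 31.2% lower. No test lies behind that count of 0. The ratios ran from 0.706 for Fh1 (0.530 to 0.941) and 0.738 for Nf1 (0.640 to 0.850) to 1.29 for Sdha (1.14 to 1.46). The 4 subunits together stood at 263 and 266 CPM, a ratio of 0.991 (0.928 to 1.06). In the window of 1000 to 2500 UMIs, Nf1 (0.517), Tmem127 (0.424), Sdhd (0.544) and Vhl (0.595) were past the fold lower, and the last 2 had intervals that held 1.

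In chromaffin-like against immune-like cells, Nf1 was past the fold higher, at 48.6 against 28.3 (ratio 1.72, 1.22 to 2.47), and Sdhb was past it lower, at 95.4 against 156 (0.611, 0.524 to 0.716). Of all genes tested, 37.1% were higher and 25.7% lower, and the median gene had a ratio of 1.13. The ratio of Sdhd was 0.683 (0.473 to 1.01), just within the fold. Of the immune-like cells 7.5% were called doublets. Without doublets Sdhb had a ratio of 0.585 and Nf1 one of 1.997, and Sdhd (0.614) and Fh1 (1.90) were past the fold as well. Divided by the median gene, Sdhd (0.606) and Tmem127 (0.665) were past it, lower.

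Within the medulla, the sustentacular-like cells were set against the chromaffin-like cells. Nf1 had 173 against 48.6 CPM, a ratio of 3.56 (2.51 to 4.93), and was the 1 gene of 10 past the fold higher, where 24.5% of all genes tested were. Of all genes tested, 90.7% had a lower ratio than Nf1, and the median gene had a ratio of 0.91. Its 40 UMIs in sustentacular-like cells came from 31 of 179 cells, with at most 2 in a cell. In the window of 1000 to 2500 UMIs it had 216 against 34.9, a ratio of 6.17 (3.87 to 9.77).

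Sdhaf2 (2 UMIs, ratio 0.290, 0.035 to 1.06) and Vhl (1 UMI, 0.357, 0.009 to 2.03) were past the fold lower, where 33.8% of all genes tested were, but their intervals held 1. The succinate dehydrogenase sum was 260 (60 UMIs) against 263, a ratio of 0.986 (0.750 to 1.27). A difference within that interval was not detectable at this depth. Divided by the median gene, Fh1 (1.59, from 4 UMIs) was past the fold higher. Of the other respiratory complexes, 5 of 25 genes of complex I, 3 of 9 of complex III, 1 of 10 of complex IV and 4 of 15 of complex V were past the fold lower, and 0 were higher. The shares over all genes tested were 33.8% lower and 24.5% higher. In the same window of UMIs per cell as above, Vhl (0.754, 0.018 to 5.19) was no longer past the fold. Sdhaf2 (0.518, 0.060 to 2.03) still was, with an interval that held 1. Sdhc (0.307, 0.062 to 0.930), from 3 sustentacular-like UMIs, was past it lower there. Tmem127 and Fh1 (both 2.07, 0.504 to 6.43) were past it higher, each from 4 sustentacular-like UMIs, with intervals that held 1.

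The sustentacular-like class was the shallowest, and other cells' markers were found in it. All 10 sustentacular markers were detected. The 7 chromaffin markers summed to 3128 CPM, against 81390 in chromaffin-like cells and 232 to 364 in the cortex-like, endothelial-like and immune-like classes. The 5 erythroid markers summed to 8741 CPM, against 1867 to 2191 in the 2 chromaffin types. Of 8 fibroblast markers 4 were detected, led by Col3a1 (991 CPM), Col1a2 (801) and Col1a1 (407), while Dcn, Lum, Pdgfra and Dpt were at 0. The fibroblast markers summed to 2207 against 3215 in fibroblast-like cells. Fibroblast-like cells had 59.7 CPM of Nf1. The fibroblast-like class held other cells' markers too. Its chromaffin markers summed to 3155 CPM, its cortex markers to 2108 and its endothelial markers to 4494. Its levels, the highest of any class for Sdhaf2, Max and Tmem127, may thus be mixed, and the part of other cells' RNA in them was not tested. Omg, which lies in an Nf1 intron, had 0 UMIs in sustentacular-like cells, which allows up to 15.96 CPM by the interval, and 22.8 CPM in chromaffin-like cells. The part of free or mixed RNA in the Nf1 level of sustentacular-like cells was not tested.

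Among the genes of the RAS pathway list, 5 of 16 tested were past the fold higher in sustentacular-like cells and 3 lower. Over all genes tested, 24.5% were higher and 33.8% lower. Spred1, whose protein brings neurofibromin to the membrane, had 121 against 21.5 CPM (ratio 5.65, 3.65 to 8.43). It also had 165 CPM in endothelial-like, 106 in immune-like and 99.4 in cortex-like cells. Of 17 tested further genes altered in these tumours, 3 were past the fold higher and 4 lower (median ratio 0.91). The growth factor receptor Fgfr1 had 134 against 24.5 CPM and Kif1b 368 against 177, while Hras had 51.9 against 94.2 and Dlst, of the citric acid cycle, 8.65 against 33.0.

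In noradrenaline against adrenaline chromaffin-like cells, 1 of the 10 genes was past the fold. Tmem127 had 13.6 (18 UMIs) against 21.3 (156 UMIs), a ratio of 0.639 (0.369 to 1.04) whose interval held 1. Of all genes tested, 12.9% were lower and 12.8% higher. Nf1 had 61.8 against 46.2 (1.34, 1.04 to 1.71) and Sdha 106 against 88.1 (1.21, 0.998 to 1.4497), both within the fold. Sdhb (0.995), Sdhc (1.01) and Sdhaf2 (0.981) were close to 1, and their intervals all lay between 0.68 and 1.38. In the same window of UMIs per cell as above, Nf1 had 34.1 against 35.1 CPM (0.970, 0.430 to 1.99). The higher Nf1 level was thus not seen in that window. The ratio of Sdha was 1.05 (0.650 to 1.64) there and that of Sdhc 1.42 (0.838 to 2.34). Sdhd (0.598) and Tmem127 (0.239) were past the fold lower there, from 2 and 1 noradrenaline UMIs, with intervals that held 1.

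Of 10 tested genes of the VHL ligase, the hydroxylases and the HIF subunits, 1 was past the fold higher in the noradrenaline type, 1 was lower and 8 were within it. The shares over all genes tested were 12.8% higher and 12.9% lower. Epas1 had 176 against 35.7 CPM (ratio 4.92, 4.11 to 5.90), while Vhl had 10.6 against 12.4 (0.852, 0.448 to 1.504). Eloc, a subunit of the VHL ligase, was the lower gene, at 66.4 against 102 (0.65, 0.515 to 0.812). Of 8 HIF target genes 3 were higher in the noradrenaline type, with Ldha at 278 against 112 and Ndufa4l2 at 2238 against 960, and 1 was lower, Pgk1 at 122 against 335, and 4 were within the fold.

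The adrenaline chromaffin-like cells held 2 large clusters of unlike depth, one of 828 cells with a median of 2310 UMIs and one of 711 cells with 5728. Nf1 had 27.3 CPM in the shallow and 56.1 in the deep cluster, a ratio of 2.06 (1.53 to 2.80), and Tmem127 11.9 and 25.2 (2.12, 1.36 to 3.43). Sdhb went the other way, 117 and 84.6 (0.725, 0.617 to 0.855). The succinate dehydrogenase sum was 262 and 256, a ratio of 0.976 (0.881 to 1.08), and the median gene had a ratio of 1.12. Depth and cluster cannot be told apart in these values.

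In cycling against non-cycling chromaffin-like cells, Sdhd had 32.5 against 18.8 CPM (ratio 1.73, 1.14 to 2.55) and Fh1 18.9 against 12 (1.57, 0.897 to 2.61). These were the 2 of 10 past the fold higher, where 19.4% of all genes tested were, and 0 were past it lower, where 5.68% were. Nf1, at 32.5 against 48.6, was just within the fold (0.669, 0.449 to 0.964). Divided by the median gene (ratio 1.08), Fh1 (1.4503) was no longer past the fold and Nf1 (0.617) was past it. The succinate dehydrogenase sum was 325 against 263 (1.23, 1.09 to 1.39). Under 3 of 10 other settings its ratio moved out of that interval, and over the 10 it ran from 1.075 to 1.80.

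All 10 cortex markers were detected in the cycling class, summing to 2084 CPM, against 135 in adrenaline chromaffin-like and 24571 in cortex-like cells. Of its cells 12.9% were called doublets, against 0 in either chromaffin type. Without doublets the ratios were 1.83 for Sdhd and 1.64 for Fh1. Named from each cell's own markers, the cycling cells gave 1.27 and 1.24, neither past the fold.

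**Figure D5:**
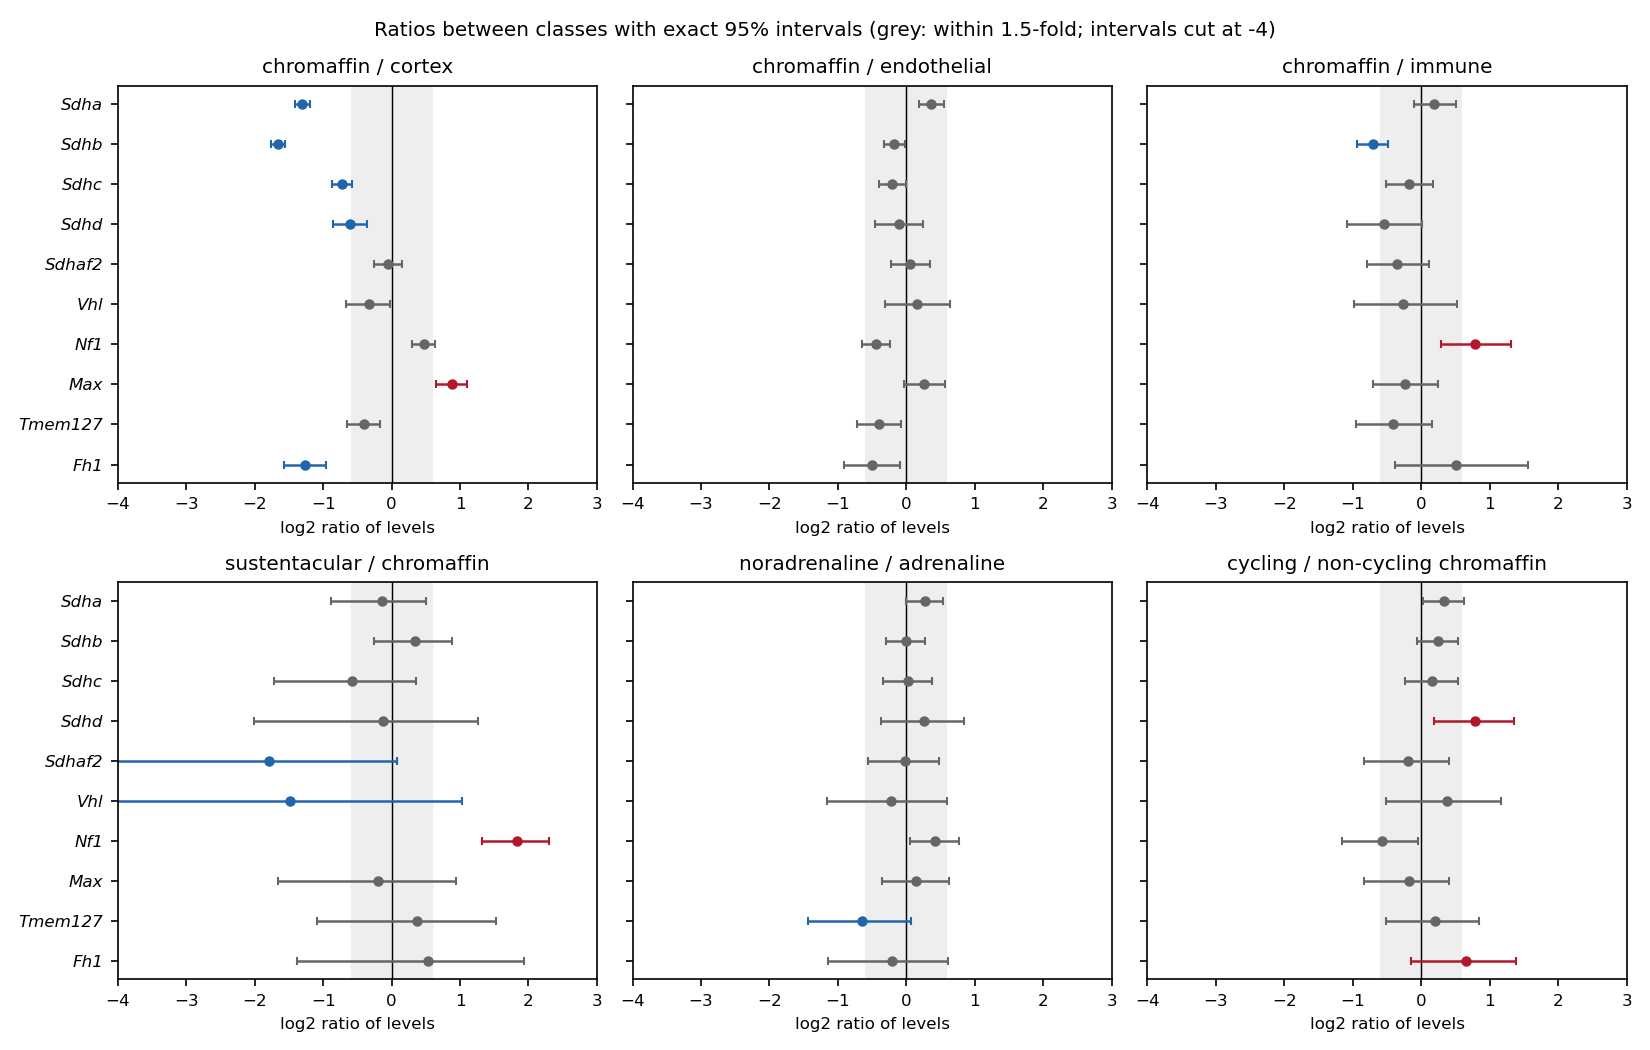
Log2 ratio of levels (x axis) of the 10 genes (rows) in the 6 comparisons of classes (panels), points with exact 95% intervals, red and blue past 1.5-fold higher and lower, grey band within it. Against the cortex 5 genes are lower and Max is higher, and Nf1 in sustentacular-like cells (1.83) is the farthest above 0 in any panel.

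Over 12 groups (the 9 named classes and 3 unnamed clusters of at least 50 cells), the log2 levels of Sdha and Sdhb had a Pearson r of 0.88, those of Sdhd and Vhl 0.88, and those of Vhl and Nf1 -0.81. These values describe groups that share 1 library and differ in depth, and the groups are not independent samples. Vhl had 1 UMI in each of the sustentacular-like and fibroblast-like groups, and Sdhd had 4 and 3. Doublets were called in 64.7% of all unnamed cells. The genes most like Sdha in this sense were Pcyt2 (r = 0.99), Fah (0.98) and Ttll11 (0.98), and those most like Sdhb were Nadk (0.98), Abca1 (0.97) and H2afj (0.97). Those most like Nf1 were Bag5 (0.96), Ick (0.95) and Trak2 (0.93). For Max, Klf13 (0.85) and Tapbp (0.83) were the most alike. Sdhc was most like Azi2 (0.97), C1qbp (0.97) and Pex14 (0.96), Sdhd like Aven (0.92), Fgfr1op (0.92) and Nln (0.90), and Fh1 like Mnd1 (0.91), Optn (0.91) and Gid4 (0.91). Sdhaf2 was most like Htra2 (0.90), Gins4 (0.89) and Ugcg (0.88), Vhl like Cct2, Bcl7c and Nudt14 (all 0.93), and Tmem127 like Os9 (0.94), Sept9 (0.93) and Pias4 (0.93). The succinate dehydrogenase sum was most like C3, Ren1 and Frmd5 (0.99, 0.99 and 0.98).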

How the data were processed

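The deposited data are UMI counts per gene and barcode of 1 library made with the 10x Genomics 3′ kit. The authors made these counts with Cell Ranger 4.0.0 on mm10 per the labels, without normalization, and each of the 11214 barcodes held at least 500 UMIs. Strand handling in counting was not given in the sources used here.

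Cells with 500 to 5000 genes and at most 20% mitochondrial UMIs were kept, after the study's methods. They were clustered with Seurat 5.3.0 in R 4.3.3 (2000 variable features, 10 principal components, Louvain resolution 0.4), and medullary clusters were clustered again. None of the 10 genes was among the 2000 variable features of the first clustering, over all cells. The variable features of the later medullary clusterings were not checked for them. Clusters were named from marker lists. The study's cell names were rebuilt this way, so its cells may be named otherwise. Doublets were called with Scrublet in scanpy 1.11.5 (669 cells, 6.6%) and kept, with their removal as an alternative. The other steps used Python 3.11.15, numpy 2.4.6, scipy 1.17.1, pandas 2.3.3 and matplotlib 3.10.9.

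Counts were summed per class and divided by the class total (as CPM). Ratios between classes were computed for all genes at 10 CPM or more over all cells. Correlations used log2 of the level plus 10. With 1 library no test was made, and intervals cover counting error only. The ratio script was tested on simulated data. Of the feature IDs, 32235 of 32285 were found in GENCODE M21.

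The text names all 10 genes in every class, up to 2 genes at either end of each pathway list per comparison described, and the 3 genes most alike to each in level, of which 1 is not reported here. The genes and lists were chosen with earlier results of these data known. Omg, Ndufv3, Mycn, Mxd3 and the leading genes of clusters and marker lists were named after their values were seen.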

Additional observations from a re-analysis of the deposited data

How the results depend on the processing

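The ratios of the 10 genes and of the succinate dehydrogenase sum were recomputed under 11 planned and added settings per comparison (10 for the sustentacular-like and cycling cells). Of 704 ratios, 651 stayed within their counting interval, 52 moved out of it and 1 reversed. Some of the unchanged ratios were fixed in advance. Leaving out the cycling cortex-like and endothelial-like clusters could change only the comparisons with those classes. Removing doublets could not change ratios among the sustentacular-like, adrenaline and noradrenaline classes, which held 0 doublets. Sdha, Sdhb and Fh1 were past the fold lower in chromaffin-like than in cortex-like cells under 11 of 11, Sdhc under 10, Sdhd under 9 and Max (higher) under 10. Nf1 was past it higher in sustentacular-like cells under 10 of 10, between 3.48 and 6.17, including the settings that could not change it. The reversal was Sdhd in cycling cells of 1000 to 2500 UMIs, a ratio of 0 from 0 UMIs in 19 cells.

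Counts of genes past the fold that moved by more than 1.5 times were as follows. Against immune-like cells (2 genes) the count was 4 without doublets, with 30 principal components, with the 10 genes and the list genes left out of the variable features, with cells named from their own markers, as a mean over cells and relative to the median gene. It was 5 at resolution 0.8, 1 with a stricter filter on cells (a minimum of 1000 genes, mitochondrial share up to 10%), 0 with a 2-fold call and 6 in the depth window. For cycling cells (2 genes) it was 4 without doublets, at resolution 0.8 and with the stricter filter, 5 as a mean over cells, 1 with cells named from their own markers, 0 with a 2-fold call and 7 in the depth window. Against endothelial-like cells (0 genes) it was 1 with the stricter filter and as a mean over cells, and 4 in the depth window. Between the 2 chromaffin types (1 gene) it was 0 with the stricter filter and a 2-fold call, and 2 in the depth window. For sustentacular-like cells (3 genes) it was 5 with cells named from their own markers and in the depth window. Against the cortex (6 genes) it was 3 with a 2-fold call. The depth window and the setting without cycling cortex-like and endothelial-like clusters were chosen after seeing the data, and the latter left every count within 1.5 times. The stricter filter left no sustentacular-like class and resolution 0.2 no cycling class. The share of all genes tested past the fold is given here for the main setting only. These moves are therefore not read as particular to the 10 genes. The cause of these moves was not tested, beyond the 2-fold call's own construction.

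No paired analysis was possible because there is 1 library. Depth limits Vhl, Fh1, Sdhd and Tmem127 most, and the sustentacular-like and fibroblast-like classes, where single UMIs set a level.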
